A study of Mus musculus with 2 samples.

Results

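The macrophage and leukocyte genes are 33 annotated genes known for macrophages and other white blood cells. They were picked by name from the annotation, with earlier results of these data known, and the rule itself used no measured value. Every deposited row of these genes was used, whatever its transcript class. At least 1 read was counted for 32 of the 33 genes, among 14514 annotated nuclear genes with a read. The samples were hearts taken at 2 months of age from male mice of the strain B6CASTF1/J, first-generation hybrids of C57BL/6 and CAST, with no treatment or mutant allele given in the labels. A single group of 2 long-read RNA libraries, replicate 1 and replicate 2, was made from 2 µg of total RNA each, so there was no contrast between conditions, and comparisons below are between these libraries. The labels name a separate animal for each biosample, while a second field repeats 1 animal for both libraries, so the spread between them may be technical. Reads were not assigned to the parental alleles.

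Macrophages are phagocytes that clear dying cells and debris and present antigen. The heart holds a resident population, seeded in part before birth and kept by local division, which lies between cardiomyocytes and along vessels, and it can be joined by monocytes from the blood. Resident cells are known for the mannose receptor Mrc1, Cd163, Lyve1 and Folr2, while Ccr2, the receptor that draws monocytes out of the marrow, marks cells of recent blood origin. Survival of the lineage depends on the receptor Csf1r and on the transcription factor Spi1. Many surface receptors of these cells signal through short adaptor proteins, such as Tyrobp and Fcer1g, whose tyrosines recruit the kinase Syk.

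The C1q subunits held 3 of the 4 highest levels of the 33 genes. C1q, the recognition protein that starts the classical complement pathway, is built from A, B and C chains with collagen-like tails, in which glycine recurs as the first residue of each triplet. The first 10 triplets of the longest such run in each coding sequence, from the annotated transcripts C1qa-201, C1qb-201 and C1qc-201, are shown 5′ to 3′ because they carry the feature common to the 3 chains. Capitals mark the glycine codons.
C1qa: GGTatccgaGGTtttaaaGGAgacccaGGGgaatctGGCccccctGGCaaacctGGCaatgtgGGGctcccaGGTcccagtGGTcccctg
C1qb: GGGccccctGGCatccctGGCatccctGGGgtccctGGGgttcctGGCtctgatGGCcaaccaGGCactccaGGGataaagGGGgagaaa
C1qc: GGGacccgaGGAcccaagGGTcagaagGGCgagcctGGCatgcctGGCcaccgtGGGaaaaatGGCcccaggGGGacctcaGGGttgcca
The uninterrupted run was 16 triplets in C1qa, 29 in C1qb and 16 in C1qc. In build mm10 the genes lie side by side on the minus strand, C1qb at chr4:136880129-136886187, C1qc at chr4:136889804-136893065 and C1qa at chr4:136895917-136898803.

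The adaptors Tyrobp and Fcer1g share a paired tyrosine motif, a tyrosine codon and 2 codons of any kind followed by a leucine or isoleucine codon, found again 6 to 8 codons later. It was searched for in 1 coding transcript of each of 29 genes and was found in these 2 genes alone, with 7 codons between the first leucine and the second tyrosine in both. The stretches below come from the annotated transcripts Tyrobp-201 and Fcer1g-201, and capitals mark the tyrosine and the leucine codons. The annotated Tyrobp transcript that was read was Tyrobp-202, whose coding start is incomplete in the annotation, and Tyrobp-201 itself had no read.
Tyrobp: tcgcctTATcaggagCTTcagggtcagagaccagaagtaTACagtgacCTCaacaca
Fcer1g: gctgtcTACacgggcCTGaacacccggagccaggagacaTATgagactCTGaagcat
The motif spans codons 92 to 106 of the 114 codons of Tyrobp and codons 65 to 79 of the 86 codons of Fcer1g.

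Promoters of 25 of the 33 genes were present in the RefSeq table of build GRCm38.p6, with 31 start sites. The letters GAGGAA, the core that Spi1 binds, were searched on both strands of the 250 bases before each start. They were found before 14 of the 31 start sites (45.2%), and before 7639 of 32851 start sites of all genes (23.3%). The longer form GAGGAAGT, which contains GAGGAA, was found before 2 of the 31 (6.45%), in C1qc and Pf4, and before 2.44% of all start sites. TATAAA was found before 2 of the 31 (6.45%), in Laptm5 and Ptprc, and before 12.4% of all start sites. The promoters of Pf4 and C1qb are printed because both genes were among the 5 highest and both windows end before the annotated gene. Capitals mark GAGGAA or its reverse complement TTCCTC. The Pf4 window is chr5:90772185-90772434 on the plus strand and the C1qb window is chr4:136886201-136886450 on the minus strand.
Pf4: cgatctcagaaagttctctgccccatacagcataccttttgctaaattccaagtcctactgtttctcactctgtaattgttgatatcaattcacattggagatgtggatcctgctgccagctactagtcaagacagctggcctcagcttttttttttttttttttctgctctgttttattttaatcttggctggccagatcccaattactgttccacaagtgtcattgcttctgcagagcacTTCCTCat
C1qb: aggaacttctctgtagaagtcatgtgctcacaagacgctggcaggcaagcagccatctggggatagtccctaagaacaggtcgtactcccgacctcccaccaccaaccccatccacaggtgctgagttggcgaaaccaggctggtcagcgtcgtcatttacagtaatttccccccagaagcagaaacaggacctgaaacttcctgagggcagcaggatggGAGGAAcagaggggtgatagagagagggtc
The match begins 8 bases before the start in Pf4 and 30 bases before it in C1qb. A match describes the letters of these windows and nothing about binding.

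The 33 genes were a small part of the RNA of these hearts, at about the same level in both libraries. They received 246 of 430251 nuclear gene reads in replicate 1 (0.0572%) and 335 of 629896 in replicate 2 (0.0532%). In CPM, counts scaled to the same total of those reads, the sum was 572 (exact Poisson 95% interval 503 to 648) in replicate 1 and 532 (476 to 592) in replicate 2, a mean of 552 ± 28.2 CPM (SD, n = 2). The ratio of the sums, replicate 1 over replicate 2, was 1.08 with an exact 95% interval of 0.908 to 1.27, so the difference lay within counting error. Each long read counts 1 transcript, so CPM were not divided by transcript length and can be compared between genes as far as long and short transcripts are read equally well. In whole tissue, fewer cells of a type and less RNA per cell cannot be told apart.

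Across the whole libraries, a read was worth 2.32 CPM in replicate 1 and 1.59 CPM in replicate 2, and the 3 reads that a count of 0 allows were worth 6.97 and 4.76 CPM. Cardiomyocyte markers summed to 48495 CPM in replicate 1 and 40937 CPM in replicate 2. Of these 5 genes, Myh6 was higher in replicate 1 (ratio 1.32) and the other 4 were lower. Myh6 and Pln (ratio 0.904) passed the test between libraries. The erythroid markers stood apart: their 5 genes summed to 13799 and 3663 CPM, a ratio of 3.77 (3.59 to 3.95), and all 5 (Hba-a1, Hbb-bs, Hba-a2, Hbb-bt and Alas2) passed the test between libraries, higher in replicate 1. The part that blood left in the tissue plays in the levels of the leukocyte genes was not tested.

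The order of the genes was steep. Lyz2, C1qc, C1qb, C1qa and Pf4 together took 143 of the 246 reads in replicate 1, or 58.1% (Clopper-Pearson 95% interval 51.7 to 64.4), and 212 of the 335 in replicate 2, or 63.3% (57.9 to 68.5). At least 10 summed reads were counted for 16 genes and 1 to 9 reads for another 16. The typical member had 8 reads in both libraries together, and the typical detected gene of the series 13. Lyz2 ranked 1067 by mean CPM among the 14514 detected genes, the C1q genes ranked 3059 to 3313, and Pf4 ranked 4383. Among the 15 neighbouring pairs in the order of the 16 genes, the means of 1 pair, Lyz2 and C1qc, were further apart than their summed SDs.

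**Figure D1:**
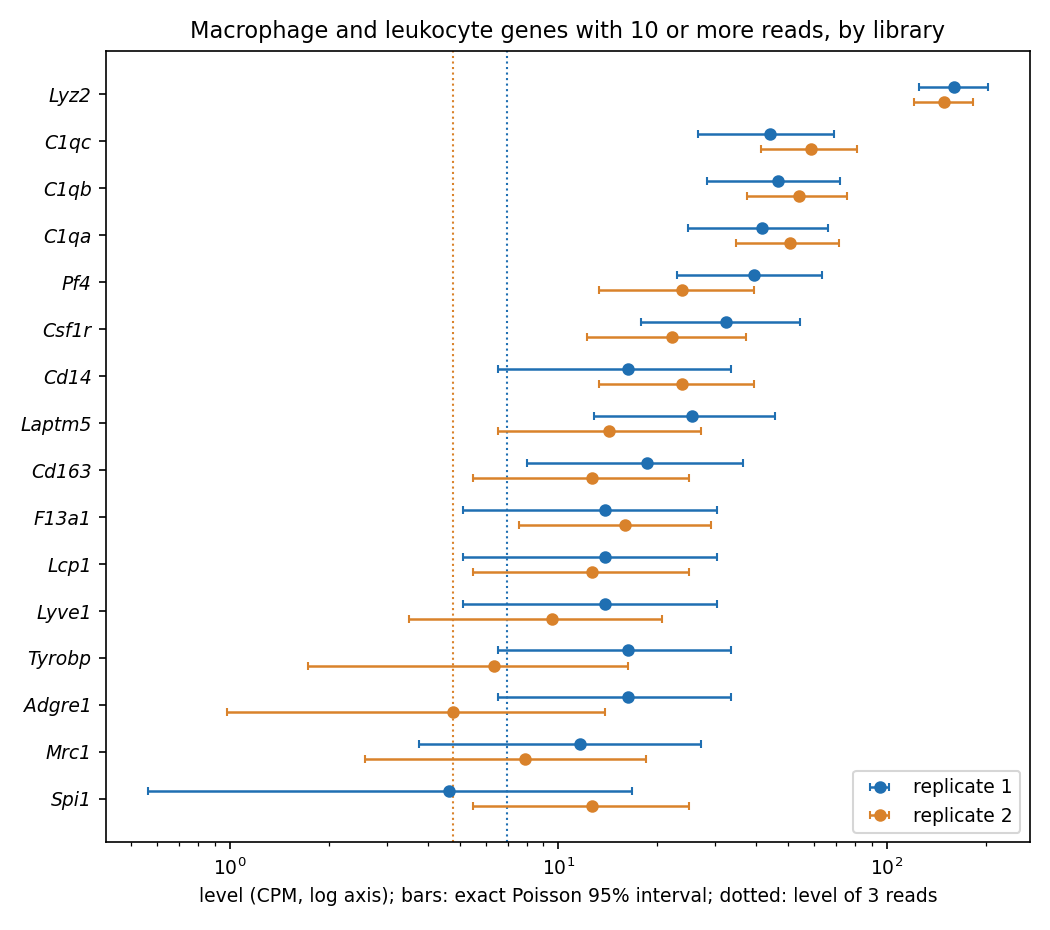
Levels of the 16 genes with at least 10 summed reads, in CPM on a log axis, with a point for each library and its exact Poisson 95% interval. Dotted lines mark the level of 3 reads, 6.97 CPM in replicate 1 and 4.76 CPM in replicate 2. Lyz2 lies above all others, the C1q genes follow within 41.8 to 58.7 CPM, and the intervals of the libraries overlap for every gene.

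The 3 C1q genes were read at nearly equal levels. C1qa had 18 reads in replicate 1 and 32 in replicate 2, which is 41.8 and 50.8 CPM (46.3 ± 6.34). C1qb had 20 and 34 reads, or 46.5 and 54.0 CPM (50.2 ± 5.30). C1qc had 19 and 37 reads, or 44.2 and 58.7 CPM (51.5 ± 10.3). Within a library the chains therefore took close shares of the C1q reads. In replicate 1 these were 31.6% (19.9 to 45.2) for C1qa, 35.1% (22.9 to 48.9) for C1qb and 33.3% (21.4 to 47.1) for C1qc. In replicate 2 they were 31.1% (22.3 to 40.9), 33% (24.1 to 43.0) and 35.9% (26.7 to 46.0), in the same order. All 3 genes were lower in replicate 1, with log2 ratios of -0.26, -0.20 and -0.39, and the interval of their summed ratio, 0.810 (0.576 to 1.13), included no difference.

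Lysozyme and the endolysosomal proteins had the highest sum of any role, 195 CPM in replicate 1 and 168 CPM in replicate 2, most of it from Lyz2. Lyz2, the lysozyme of myeloid cells that cuts bacterial cell walls, lies at chr10:117277331-117282321. It had 69 reads in replicate 1 and 94 in replicate 2, or 160 and 149 CPM (155 ± 7.88), 28.1% of the level of the 33 genes. Its neighbouring copy Lyz1, whose coding sequence matches at 422 of 444 bases (95%), had 0 and 1 reads, and the split between them is the authors' assignment. Laptm5, a lysosomal membrane protein of blood cells, had 11 and 9 reads, or 25.6 and 14.3 CPM (19.9 ± 7.98). Mpeg1, a pore-forming protein of phagosomes, had 2 reads in each library. Cd68, a glycoprotein of late endosomes often used to stain macrophages, had 2 and 1 reads.

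Of the 6 genes known for resident macrophages, 5 were read in both libraries. Pf4, a chemokine made by platelets and by resident macrophages, had 17 reads in replicate 1 and 15 in replicate 2, or 39.5 and 23.8 CPM (31.7 ± 11.1). Cd163, the scavenger receptor for haptoglobin-bound haemoglobin, had 8 reads in each library (18.6 and 12.7 CPM). F13a1, a transglutaminase subunit of clotting that macrophages also hold, had 6 and 10 reads (13.9 and 15.9 CPM). Lyve1, a hyaluronan receptor, had 6 reads in each (13.9 and 9.53 CPM), and Mrc1, the mannose receptor, had 5 in each (11.6 and 7.94 CPM). Folr2, a folate receptor, had 1 read in replicate 1 and none in replicate 2, which is below the 3-read limit in both. Pf4 is shared with platelets. Of 6 other platelet markers, Itga2b had 5 reads in replicate 1 and 1 in replicate 2, Gp1bb had 0 and 2, Ppbp had 1 and 0, and Gp1ba, Gp9 and Gp6 had none. The list summed to 13.9 and 4.76 CPM, a ratio of 2.93 (0.625 to 18.1), and the part of platelets in the Pf4 reads was not tested. Lyve1 is shared with lymphatic vessels, and all 5 lymphatic markers were read, with a sum of 37.2 and 42.9 CPM led by Ccl21a and Prox1. The part of lymphatic vessels in the Lyve1 reads was not tested.

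Among the receptors, Csf1r, which binds the growth factors Csf1 and Il34, had 14 reads in each library, or 32.5 and 22.2 CPM (27.4 ± 7.29). Cd14, a co-receptor for bacterial lipopolysaccharide, had 7 and 15 reads, or 16.3 and 23.8 CPM (20.0 ± 5.33). Neither differed between libraries beyond counting error. The chemokine receptors were at the limit of detection: Cx3cr1, the receptor for Cx3cl1, had 0 and 1 reads, and Ccr2 had none in either library. For Ccr2 the 3-read limit was 6.97 CPM in replicate 1 and 4.76 CPM in replicate 2. Its exact Poisson 95% intervals reached 8.57 and 5.86 CPM. The levels of Cd53 and Mpeg1 (4.65 and 3.18 CPM each) lay below these limits within each library. A limit over both libraries was not computed, so whether Ccr2 was lower than Cd53 or Mpeg1 was not tested. The single Cx3cr1 read was a genomic model of 543 bases (chr9:119963771-119964313) that lay within an intron of the annotated transcript Cx3cr1-202. The annotated span of Cx3cr1 overlaps the same-strand genes Gorasp1 (29 and 46 reads) and Xirp1 (39 and 41 reads). Whether the read lies in either of these genes was not tested.

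The Fc receptors and their adaptors summed to 30.2 CPM in replicate 1 and 27.0 CPM in replicate 2. Tyrobp had 7 and 4 reads, or 16.3 and 6.35 CPM (11.3 ± 7.01). Fcer1g, the common gamma chain of Fc receptors, had 4 and 3 reads. Fcgr3, an activating receptor for immunoglobulin G that needs Fcer1g, had 2 and 6 reads. The inhibitory receptor Fcgr2b had 0 and 3 reads, and the lipid receptor Trem2, which signals through Tyrobp, had 0 and 1 reads. The related receptors Fcgr1 and Fcgr4 had no read in either library.

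Surface proteins of leukocytes, some of them mainly myeloid, were low. Adgre1, the antigen F4/80 of mouse macrophages, had 7 reads in replicate 1 and 3 in replicate 2 (16.3 and 4.76 CPM, mean 10.5 ± 8.14). The tetraspanin Cd53 had 2 and 2 reads, Cd52 had 2 and 1, and Cd48 had 1 and 2. Itgam, the integrin chain CD11b, had 1 read in each library. Ptprc, the phosphatase CD45 that all leukocytes carry, had 0 and 2 reads, so that the best-known marker of the whole lineage was below the 3-read limit in both libraries.

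Genes of the cytoskeleton, the oxidase and the lineage factor completed the set. Lcp1, which bundles actin in leukocytes, had 6 and 8 reads, or 13.9 and 12.7 CPM (13.3 ± 0.880). Spi1 had 2 and 8 reads, or 4.65 and 12.7 CPM (8.67 ± 5.69). Coro1a, which binds actin around phagosomes, had 3 and 5 reads, and Aif1, the calcium-binding protein Iba1, had 1 and 3. The coding transcript Aif1-203 took 1 Aif1 read in each library. In replicate 2 another was Aif1-205, annotated as a retained intron, and another was a genomic model of 5 bases. Cybb, the membrane subunit of the phagocyte oxidase that makes superoxide, had 3 reads in replicate 1 and none in replicate 2. Coro1a shares bases with Bola2 on the opposite strand (23 and 27 reads), and the way reads were given a strand is not known from the labels.

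For each of the 8086 genes with at least 10 summed reads, the split of its reads between the libraries was set against the split of all nuclear gene reads by an exact binomial test (two-sided), with Benjamini-Hochberg adjustment over all 8086. The test sets 1 library against 1 library and covers counting error only. None of the 16 members tested passed at an adjusted p under 0.05, where 0.693% of all genes did (0.322% when a difference of at least 2-fold was also asked). None reached an unadjusted p under 0.05, where 7.11% of all genes did. The median log2 ratio, replicate 1 over replicate 2, was 0.36 over the 16 members and 0.01 over all genes. The members' median was 0.36 at a minimum of 1 read, 0.31 with TMM normalization and 0.54 without genomic models. With ERCC spike-in scaling it was 0.09, beside -0.26 over all genes. It was 0.01 over known transcripts only (10 members) and -0.23 over the 4 members with at least 50 reads. Its size therefore depended on the setting, and its sign turned only at the minimum of 50 reads. The ratio was above 0 for 10 members and below 0 for 6, or for 8 and 8 with ERCC spike-in scaling, under which Lyz2 (0.11, then -0.16) and Lcp1 (0.16, then -0.10) changed sign. Over all genes the ratio was above 0 for 51% of the genes, before spike-in scaling.

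The ratios furthest from 0 belonged to genes with few reads. Adgre1 was 3.42-fold higher in replicate 1 (exact 95% interval 0.780 to 20.5, exact binomial adjusted p = 0.808). Tyrobp was 2.56-fold higher in replicate 1 (0.651 to 11.9, exact binomial adjusted p = 0.861). Spi1 had a ratio of 0.366 (0.0379 to 1.83, exact binomial adjusted p = 0.921). All 3 intervals include 1, and they also include changes of several-fold, which this depth could not show. For Lyz2, the deepest member, the ratio was 1.07 (0.776 to 1.48). Of the 16 members, 11 were within 1.5-fold, and of the 7010 genes in the same range of read numbers 71% were. Csf1r, Cd163, Lyve1 and Mrc1 were just inside that limit, at 1.46. The median distance of the log2 ratio from 0 was larger for the 16 members, 0.55, than for those 7010 genes, 0.35. Only the range of read numbers was matched, not the spread of genes within it, so the part of read number in this difference was not tested.

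**Figure D2:**
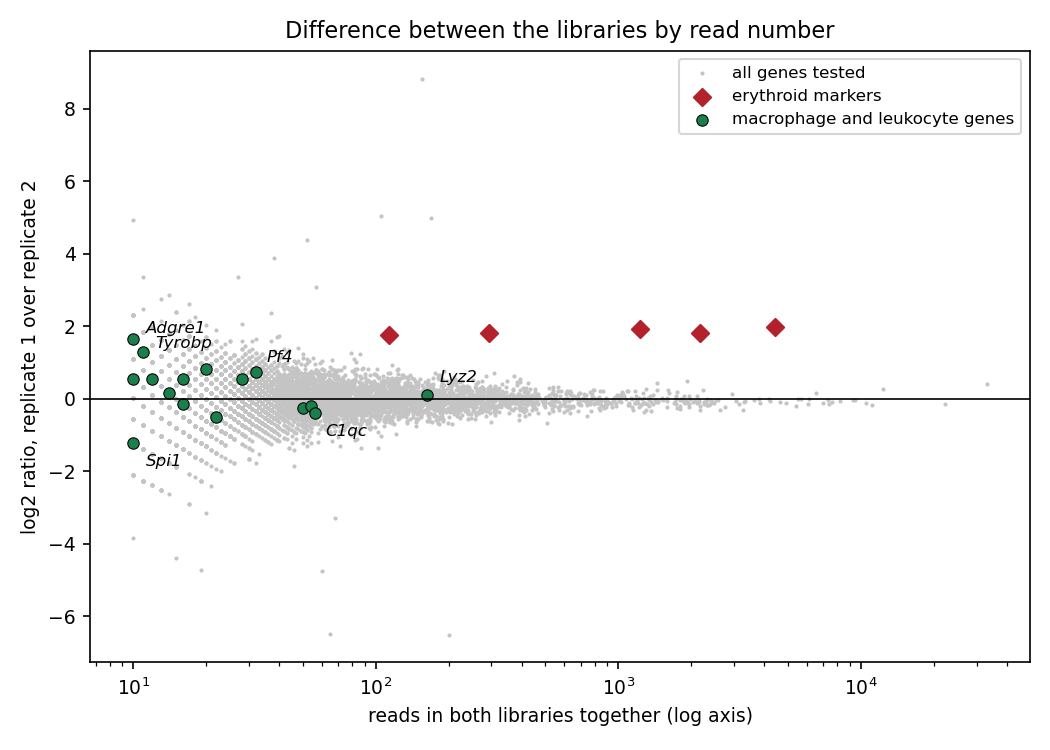
Log2 ratio of replicate 1 over replicate 2 against the summed reads of each gene, on a log axis, for the 8086 genes tested (grey), the 16 macrophage and leukocyte genes (green) and the 5 erythroid markers (red). The green points lie inside the grey cloud, from -1.22 for Spi1 to 1.65 for Adgre1, while the erythroid markers lie above most genes of like read number, from 1.75 to 1.98.

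Markers of other immune cells had fewer reads in sum than the 33 genes, which had 246 in replicate 1 and 335 in replicate 2. Over the 6 lists for neutrophils, T cells, B cells, NK cells, mast cells and dendritic cells there were 43 genes, of which 27 had no read, and the lists summed to 33 reads in replicate 1 and 35 in replicate 2. Zbtb46, a transcription factor of classical dendritic cells that endothelium also makes, gave 16 reads in each library, while Cd209a had 0 and 1 and the dendritic markers Flt3, Xcr1, Clec9a, Itgax and Siglech had none. With Zbtb46 the dendritic list summed to 37.2 CPM in replicate 1 and 27.0 CPM in replicate 2. Not every role among the 33 genes was higher, since the Fc receptors and their adaptors summed to 30.2 and 27.0 CPM. Ighm, the heavy chain of immunoglobulin M, had 5 and 8 reads, and Ms4a1 had none. For T cells Lck had 2 and 0 reads and Thy1 had 1 and 1, and the receptor genes Cd3d, Cd3e and Cd3g had none. For neutrophils S100a9 had 3 reads in each library, S100a8 had 0 and 1, Mmp9 had 0 and 2, and Ly6g, Cxcr2 and Mpo had none. For NK cells Nkg7, Gzma and Klrb1c had 1 read each in all, and for mast cells Cma1 and Tpsb2 had 1 each.

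**Figure D3:**
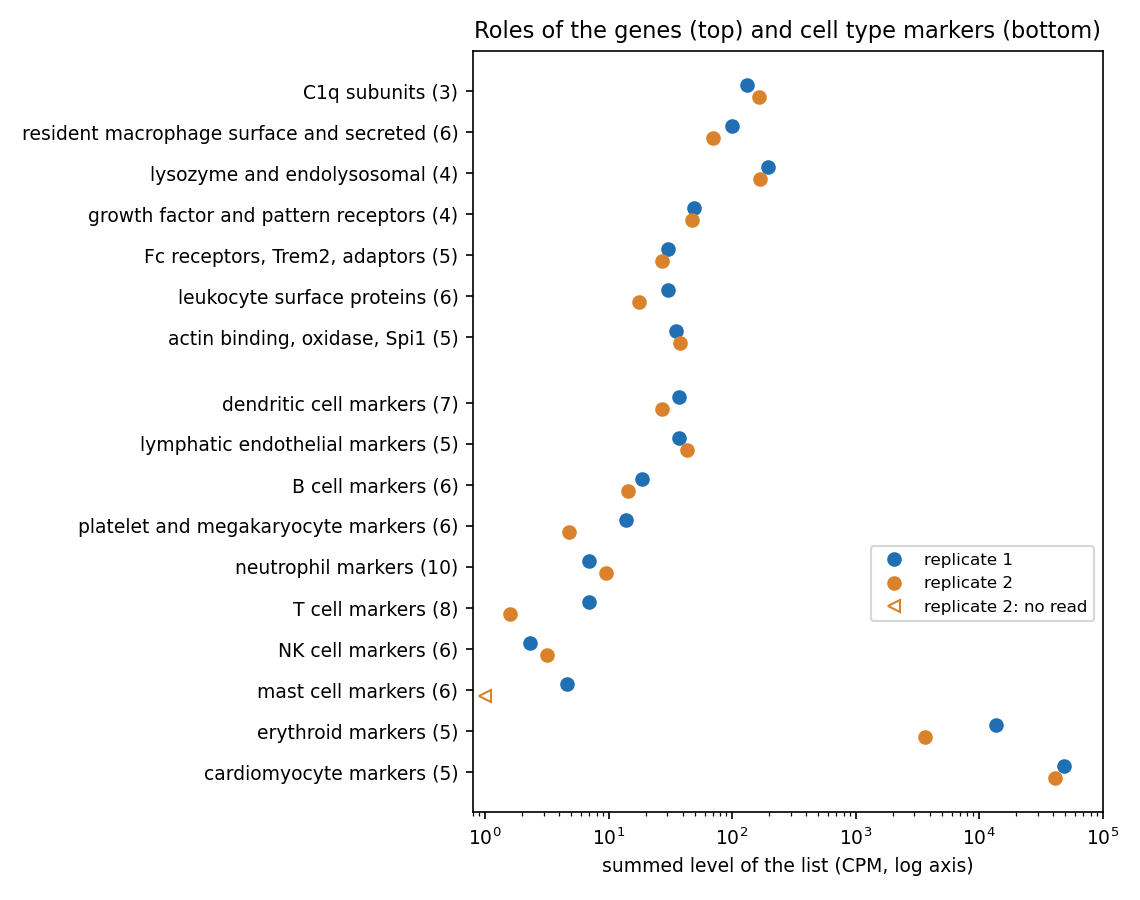
Summed level in CPM, on a log axis, of each role among the 33 genes (top) and of cell type markers (bottom), with the number of genes of each list in brackets and a point for each library. The roles lie between 17.5 and 195 CPM in both libraries, the neutrophil, T cell, NK cell and mast cell markers below 10 CPM, and the mast cell markers had no read in replicate 2. The dendritic cell markers, at 37.2 and 27.0 CPM, lie within the range of the roles, and the B cell markers lie at 18.6 and 14.3 CPM.

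Genes that work with the 33 were also read. Over 7 further lists with 77 genes, 64 were detected, 29 had enough reads to be tested between libraries, and 0 passed the exact binomial test. At an unadjusted p under 0.05 there were 2, Sirpa and Plcg2, or 2 of 29 where the share over all genes was 7.11%. Of the 29 genes, 16 had log2 ratios above 0 and 13 below. The other complement genes summed to 411 CPM in replicate 1 and 405 CPM in replicate 2, and all 11 were detected. Among them were the C1 inhibitor Serping1 (167 ± 12.8 CPM) and the central component C3 (55.6 ± 6.81). The proteases C1s1 (23.8 ± 9.02) and C1ra (21.9 ± 1.84), which join C1q in the C1 complex, each had about as many CPM as Csf1r.

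Other macrophage genes summed to 1325 and 1419 CPM, of which Apoe, the lipid carrier, gave 818 and 880 CPM, Gas6, a bridge to dying cells, 153 and 181 CPM, and the protease Lgmn 119 and 113 CPM. These leading genes are made by many cell types. Of the 24 genes on the list, 4 had no read (Marco, Ms4a7, Ly86 and Cd84), and Timd4, a receptor of long-lived resident macrophages, had 1 read in each library. Of the kinases and receptors of the signalling that Tyrobp and Fcer1g take part in, Syk had 9 reads in replicate 1 and 15 in replicate 2 (20.9 and 23.8 CPM), Lyn had 6 and 11 (13.9 and 17.5 CPM), and Sirpa, an inhibitory receptor, had 28 and 20 (65.1 and 31.8 CPM). Plcg2, a phospholipase activated by Syk, had 8 and 2 reads. The 12 genes of that list summed to 142 and 96.8 CPM, a ratio of 1.46 (1.01 to 2.12), with 4 genes at 0 (Fgr, Fcgr1, Fcgr4 and Trem1). That interval was not adjusted for the number of lists. Of the 5 genes tested, 3 had log2 ratios above 0 (Sirpa, Plcg2 and Btk) and 2 below (Syk and Lyn), and none passed. The oxidase subunits were led by Rac1 (102 ± 19.5 CPM), Cyba (42.7 ± 2.04), the partner of Cybb, and Rac2 (8.62 ± 0.961).

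Among the ligands of the receptors above, Csf1 was read at 55.8 and 42.9 CPM and Il34 at 1 read in each library, while Csf2ra had 18.6 and 12.7 CPM. Cx3cl1, the ligand of Cx3cr1, was read at 11.6 and 12.7 CPM. The highest chemokines were Cxcl12 (57.2 ± 4.56 CPM) and Ccl6 (24.3 ± 1.53), followed by Cx3cl1, and Ccl2, the ligand of Ccr2, had 2 reads in replicate 1 and none in replicate 2. Of the other genes shared by leukocytes, Arhgdib (20.0 ± 5.33 CPM), Itgb2 (10.2 ± 1.28), the partner chain of Itgam, and Cd37 (5.07 ± 2.69) were highest, and Itgal, Was and Rgs1 had no read.

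Each read had been placed in a transcript class. Known transcripts match the annotation, and an incomplete splice match follows a known transcript over part of its introns or lies within an exon. NIC models join known splice sites in a combination absent from the annotation, NNC models use at least 1 splice site absent from it, and genomic models lie in a gene but do not keep to its splice sites. Known transcripts took 211 of the 246 member reads in replicate 1, or 85.8% (Clopper-Pearson 95% interval 80.8 to 89.9), and 280 of 335 in replicate 2, or 83.6% (79.2 to 87.4). Over all annotated nuclear genes the shares were 75.7% and 75.6%, and over genes with no more reads than Lyz2 they were 69.1% and 69.4%. Most member reads came from Lyz2, the C1q genes and Pf4, with leading transcripts of 588 to 1316 bases, and gene by gene the median known share was 80.9% for the 16 members and 78.3% for all 8086 genes. Incomplete splice matches took 8.13% (5.04 to 12.3) and 8.66% (5.87 to 12.2) of member reads, against 10.8% and 11% over all genes. NIC models took 1.22% and 1.19%, NNC models 2.44% and 3.28%, and genomic models 2.44% and 3.28% of member reads.

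**Figure D4:**
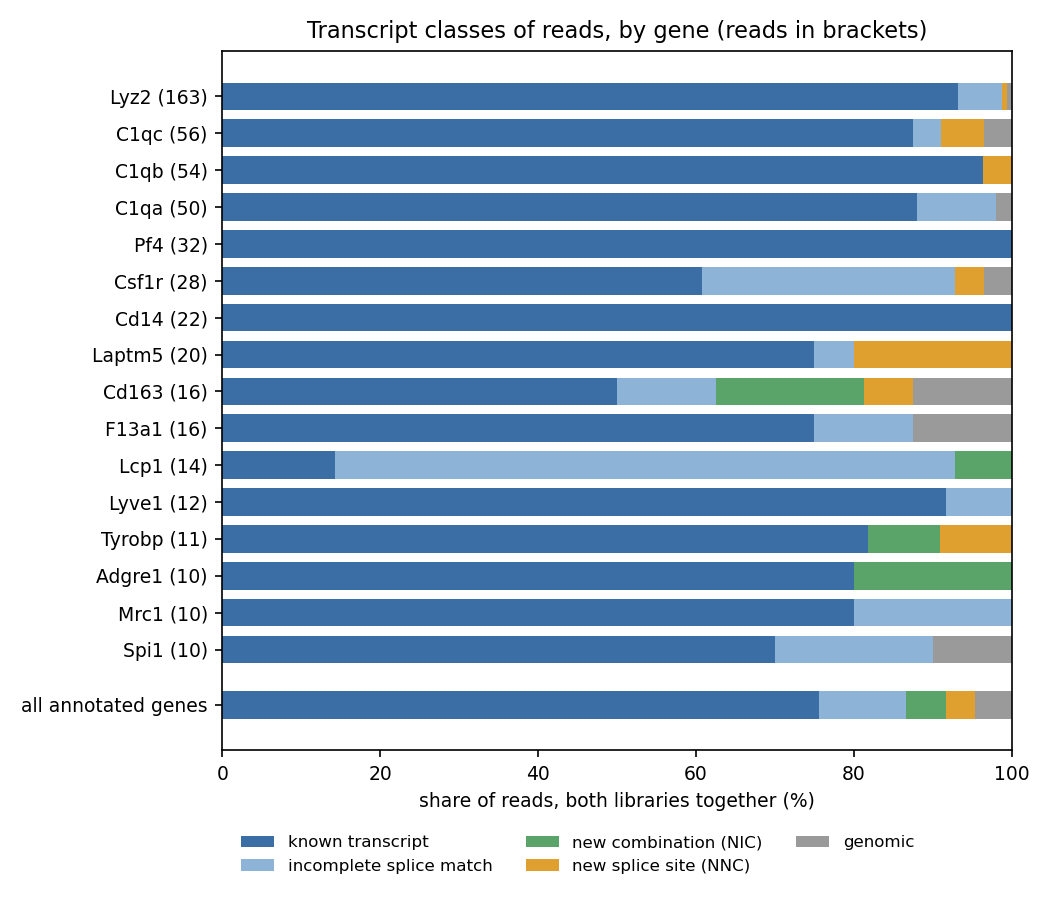
Share of reads in each transcript class, in percent of the reads of both libraries together, for the 16 genes with at least 10 summed reads and for all annotated nuclear genes. Pf4 and Cd14 reads were known transcripts in full, Csf1r held 32.1% incomplete splice matches, and Lcp1 held 78.6%.

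The annotation lists 144 transcripts of the 33 genes, of which 37 were read. For 22 genes a single annotated transcript was read, for 7 more than 1, and for Ptprc, Mpeg1, Ccr2 and Cx3cr1 none. Protein-coding transcripts took 485 of the 491 known reads. Among genes with at least 20 summed reads, Lyz2-201 took 65 of 69 reads in replicate 1 and 87 of 94 in replicate 2, C1qa-201 took 17 of 18 and 27 of 32, C1qb-201 took 20 of 20 and 32 of 34, and C1qc-201 took 17 of 19 and 32 of 37. All 17 and 15 reads of Pf4 belonged to Pf4-201. Csf1r-202, the only annotated Csf1r transcript read, took 9 and 8 of 14 reads, and Laptm5-207 took 9 of 11 and 6 of 9. Cd14 was the exception with a second transcript: Cd14-201 had 4 and 15 reads, and Cd14-202, annotated as a retained intron, had 3 reads in replicate 1 and none in replicate 2.

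Isoform use could not be tested for any member at the minimum of 20 known reads in each library with more than 1 known transcript. Over all genes that rule tested 1356, of which 1 (0.0737%) was called by Fisher's exact test. With incomplete splice matches counted as isoforms, Lyz2 was the 1 member tested, and Lyz2-201 took 95.6% in replicate 1 and 93.5% in replicate 2 (Fisher's exact test, adjusted p = 1.0). Among genes below 20 reads, Adgre1 reads were split between Adgre1-201 (2 and 2) and Adgre1-202 (4 and 0), and Fcgr3 reads between Fcgr3-201 (1 and 3), Fcgr3-204 (0 and 2) and Fcgr3-203 (0 and 1).

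Most incomplete splice matches kept the 3′ end, and whether they are shortened copies or begin at another start was not tested. Suffix models, which lack exons at the 5′ side, held 33 of the 49 reads of incomplete splice matches, and 19 of these lacked only the first annotated intron. Lcp1 gave 11 of these: 4 of its 6 reads in replicate 1 and 7 of its 8 in replicate 2 followed Lcp1-209, a transcript of 17 exons, without its first exon, and still held the annotated coding start. Lcp1-209 in full was not read, and Lcp1-202 had 2 reads in replicate 1. C1qa gave 1 and 4 reads of a model of 2 exons that also held the coding start. Csf1r, with 21 exons, gave 2 and 1 reads of a model of 19 exons, and Lyz2 gave 3 and 5 reads of 1 exon and 857 bases.

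Models of the NIC and NNC classes were few and thinly read. There were 5 NIC models with 7 reads and 14 NNC models with 17 reads, and 1 of each was read in both libraries. In Cd163 a model of 16 exons kept an intron of 1057 bases (chr6:124327988-124329044) and had 2 reads in replicate 1 and 1 in replicate 2, beside 3 and 4 reads of Cd163-201. In Laptm5 a gap of 37 bases that begins with GT and ends with AG lay in the 3′ UTR of the last exon (chr4:130935122-130935158), in 2 of 11 reads in replicate 1 and 2 of 9 in replicate 2, over 2 models. Whether this gap is an intron was not tested, and reads were not assigned to the parental alleles. In C1qc an NNC model with an intron of 230 bases had 2 reads in replicate 2 and none in replicate 1.

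All reads of Mpeg1 departed from the annotation in the same way. Its 2 and 2 reads formed a genomic model of 4427 bases from the first to the last annotated base, which kept the annotated intron of 171 bases and lacked 78 bases of the 3′ UTR (chr19:12465035-12465112). The missing bases begin with GT and end with AG and end 171 bases before the end of the transcript. Whether they are an intron was not tested. Mpeg1-201 itself, of 4334 bases, was not read. With 4 reads in all, other Mpeg1 transcripts remain possible at this depth.

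**Figure D5:**
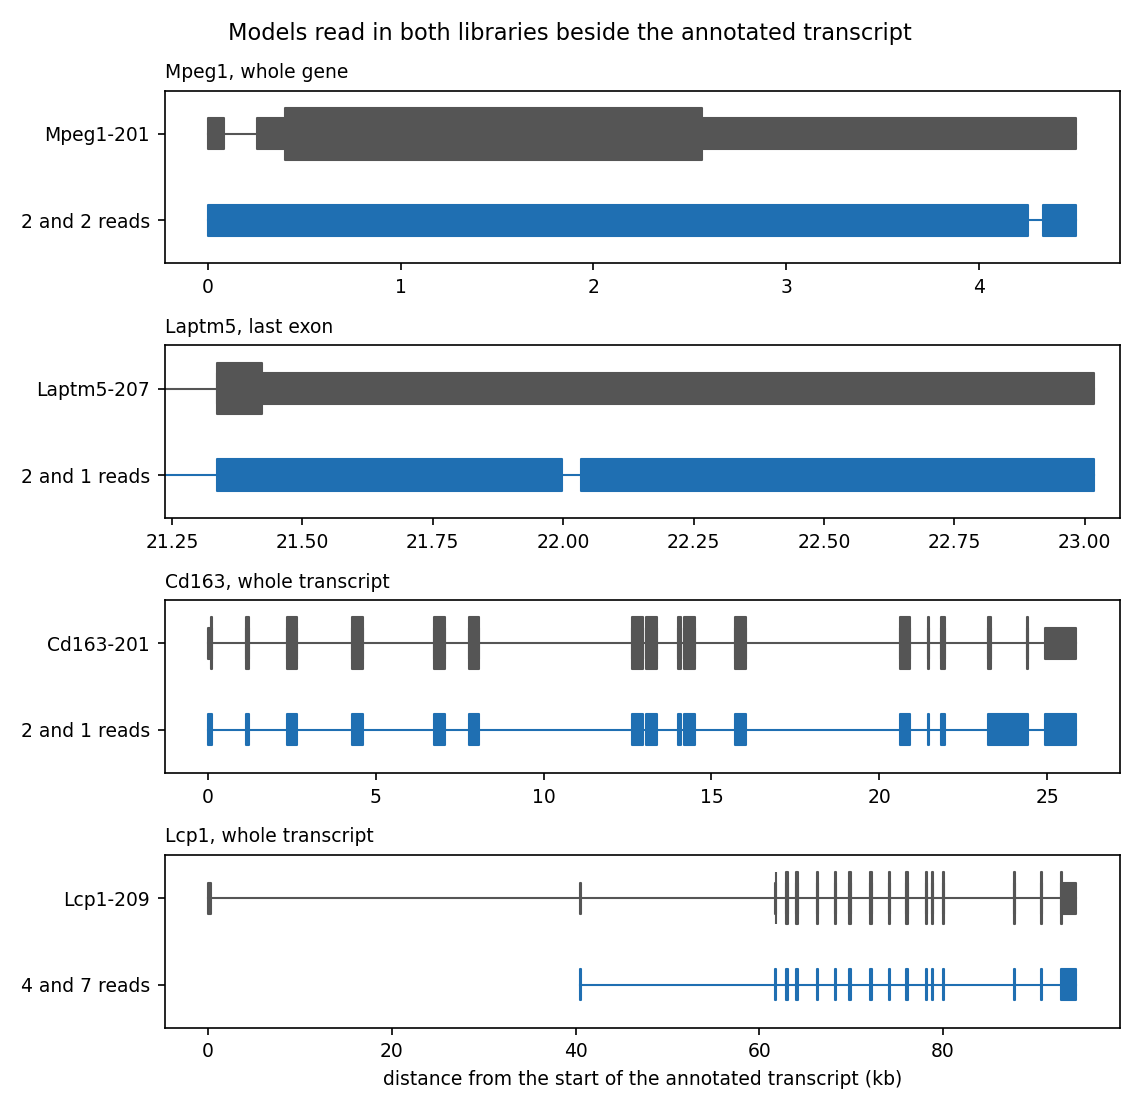
Exons (boxes) and introns (lines) to scale, in kb from the start of the annotated transcript, of the annotated transcript (grey, tall where coding) and of a model read in both libraries (blue) for Mpeg1, the last exon of Laptm5, Cd163 and Lcp1. Read numbers are for replicate 1 and replicate 2, and the blue models show the kept intron and the 3′ gap of Mpeg1, the 37-base gap of Laptm5, the kept intron of Cd163 and the missing first exon of Lcp1.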

How the data were processed

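Long-read RNA sequencing was deposited for 2 heart libraries of 1 group. The authors deposited raw counts of reads per transcript model for each library, with no normalization, and transcript annotations on build mm10 with GENCODE M21, per the text files beside the tables. TALON is named as the source of new models, per the file headers. The aligner and its version: not given in the sources used here.

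Reads of all classes were summed per gene, leaving out spike-in RNAs and mitochondrial genes, and scaled to CPM over 430251 and 629896 nuclear gene reads. Replicate 1 held 454069 reads and replicate 2 held 661958. Log2 ratios had 0.5 reads added. Levels, classes and models are descriptions with exact intervals, which cover counting error only. The exact binomial test (SciPy 1.17.1) called genes at an adjusted p under 0.05 and at least 2-fold. Fisher's exact test called isoform use at an adjusted p under 0.05 and a change of at least 10 percentage points. Both tests were tried on simulated reads that held counting error only. For the binomial test, changes were set only in genes with more reads than several of the members tested. For isoform use no change was set, so its power was not tested. Motifs and coding sequences came from RefSeq promoters and GENCODE M21 transcripts.

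The 33 genes and the other lists were chosen with earlier results of these data known. All 33 are accounted for, of each other list the 3 highest genes and every gene that passed are named (Myh6 and Pln of the cardiomyocyte markers passed, at ratios of 1.32 and 0.904), and isoforms are described from 20 summed reads. Some genes that this rule names are not reported here. Alternatives changed denominators (edgeR 4.0.16 for TMM), read minimums, classes and libraries.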

Additional observations from a re-analysis of the deposited data

How the results depend on the processing

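No paired analysis was possible because there was 1 group. No member passed under any of the 6 alternatives to the comparison of the libraries, with a smallest adjusted p of 0.49 and 0 members at an unadjusted p under 0.05. The summed level was 532 and 572 CPM with either library left out, and 618 CPM over known transcripts only. Without either library the known share was 83.6% to 85.8%, the share of incomplete splice matches 8.13% to 8.66%, and 9 or 10 of the 10 highest members stayed. With models of at least 2 reads those shares were 92.4% and 5.20%, since models of 1 read were left out. The median log2 ratio of the members turned to -0.23 at a minimum of 50 reads, which left 4 members. Of all genes, 26 were called (18 higher in replicate 1 and 8 higher in replicate 2). ERCC spike-in scaling shifted every log2 ratio by -0.27 and called 70 (16 and 54), and the cause was not tested. Known transcripts only gave 15, with fewer genes tested. Counting incomplete splice matches as isoforms gave 29 genes called for isoform use, of 2556 tested. The main setting gave 1 of 1356, and a minimum of 10 reads in each library gave 1 of 2119. Known transcripts only also left the members' log2 ratios at 5 above and 5 below 0, with a median of 0.01, and without genomic models 39 genes were called (29 and 10). The ratio of each member was recomputed with ERCC spike-in and TMM scaling only: Lyz2 and Lcp1 changed sign with the first, neither past the test, and no member did with the second. Depth is a limit: 16 of the 33 genes had 1 to 9 reads and Ccr2 had none, and several-fold differences between libraries could not be seen at 10 reads.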

Other observations

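Reads in unannotated loci on the strand opposite to a member were few and were below or at the 3-read limit in each library. At Cd53 such loci held 2 reads in replicate 1 and 1 in replicate 2, followed by 1 and 3 at Folr2, 2 and 0 at Mrc1, 0 and 1 at Itgam, and 1 and 0 at Ptprc. At Folr2 these reads outnumbered the 1 read of the gene itself. Annotated antisense genes overlapped F13a1 (Gm30489, with 2 reads in each library) and Folr2 (Gm10602, with 1 read in each). Csf1r overlapped Hmgxb3 on the opposite strand, which had 8 and 6 reads. The way reads were given a strand is not known from the labels, so these reads and those of the members cannot be told apart with certainty.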
